A study of Mus musculus with 6 samples.

Results

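The genes described here encode interleukin-10 (IL-10), the 3 colony-stimulating factors and their receptor chains, 10 genes chosen by name from a table of 24016: Il10, Il10ra, Il10rb, Csf1, Csf1r, Csf2, Csf2ra, Csf2rb, Csf3 and Csf3r. They were measured by mRNA sequencing in 6 libraries of bone marrow-derived macrophages, cells grown from the marrow of 8-week-old female C57BL/6N mice in medium with 20 ng/mL M-CSF and without estrogenic phenol red. Every culture, controls included, was stimulated with lipopolysaccharide (LPS, 100 ng/mL for 6 h), the bacterial agonist of TLR4, after 1 h with a compound or its vehicle, so all levels are LPS-stimulated levels. Catechol estrogens made up the hydroxyestrogen group, with 1 library each of 2OHE2 (2-hydroxyestradiol), 4OHE1 (4-hydroxyestrone) and 2OHE1 (2-hydroxyestrone). The control group held the ethanol vehicle (EtOH), estradiol (E2) and an estrogen labelled 16Epi, also 1 library each. Each estrogen came from a 1 mM stock diluted 1 to 1000, which gives 1 µM. A group of 3 libraries is therefore a group of 3 compounds or vehicle. The labels do not say whether separate animals or cultures were used, so p-values here reflect how far these 6 libraries scattered, and that scatter may be technical.

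IL-10 is secreted by macrophages under LPS and acts back on them through a receptor of a ligand-binding chain, IL-10Rα (Il10ra), and a shared chain, IL-10Rβ (Il10rb), which signal through JAK1, TYK2 and STAT3 to restrain inflammatory genes. M-CSF (Csf1) binds the receptor tyrosine kinase CSF1R and keeps macrophages alive. GM-CSF (Csf2) acts through its own α chain (Csf2ra) and the common β chain (Csf2rb), while G-CSF (Csf3), which drives neutrophil production, acts through a single receptor (Csf3r).

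The libraries held 14734225 to 17326353 reads in genes. The 4OHE1 library stood apart from the other 5 on the first principal component of all tested genes, at 50.5 against -19.4 to -1.51, so values without it are given where a result rests on it. Among 7 macrophage markers in the table all had reads in the libraries, with a summed level of 7585 to 8003 RPKM in controls and 6721 to 7974 RPKM with hydroxyestrogens; RPKM scales reads for exon length and for the tags of the library. Lyz2 and Cd14 make up most of that sum. Mertk was low, on 35 to 142 reads, at 0.581 to 0.901 RPKM in controls and 0.720 to 2.13 RPKM with hydroxyestrogens, with overlap. Of the others, Fcgr1 (75.4 ± 1.51 against 59.2 ± 4.21 RPKM, SD, n = 3; limma adjusted p = 0.0585), Itgam (102 against 87.7) and Emr1 (277 against 258) were lower with hydroxyestrogens and Cd68 (282 against 303) higher, without overlap between the groups and without passing the test; their part in the results was not tested. Markers of T cells (5 genes), B cells (4) and mast cells and basophils (4) summed to at most 0.113 RPKM in any library, with Cd3e, Cd3d, Cd8a, Trat1, Cd79a, Ms4a1, Pax5, Mcpt8, Ms4a2 and Mcpt4 at 0 in all 6. Neutrophil markers summed to 2.64 to 4.61 RPKM in controls and 0.697 to 3.52 RPKM with hydroxyestrogens, stromal markers to 13.05 to 15.5 and 10.7 to 16.7 RPKM, and dendritic cell markers to 2.21 to 2.96 and 1.95 to 2.63 RPKM. Xcr1, on 150 to 240 reads, made up most of the dendritic cell sum, and Flt3, Zbtb46 and Cd209a had 13 reads or fewer in every library.

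All 10 genes were measured, with between 20 reads (Csf2, 2OHE2) and 37585 reads (Csf1r) per library. In controls the order of levels per length was Csf1r at 429 RPKM, Csf2ra at 259.96, Il10rb at 123.0, Csf2rb at 122.9, Il10ra at 67.9, Csf3 at 66.8, Il10 at 52.7, Csf1 at 25.2, Csf3r at 5.31 and Csf2 at 3.27 RPKM (means, n = 3). The ranges of Il10rb and Csf2rb overlapped, as did those of Il10ra and Csf3, so neither pair is ordered beyond its spread. The order of means was the same with hydroxyestrogens. By the mean over all 6 libraries, the receptor kinase of M-CSF stood above 98.9% of the 11991 tested genes, and GM-CSF above 26.4% of them.

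**Figure D1:**
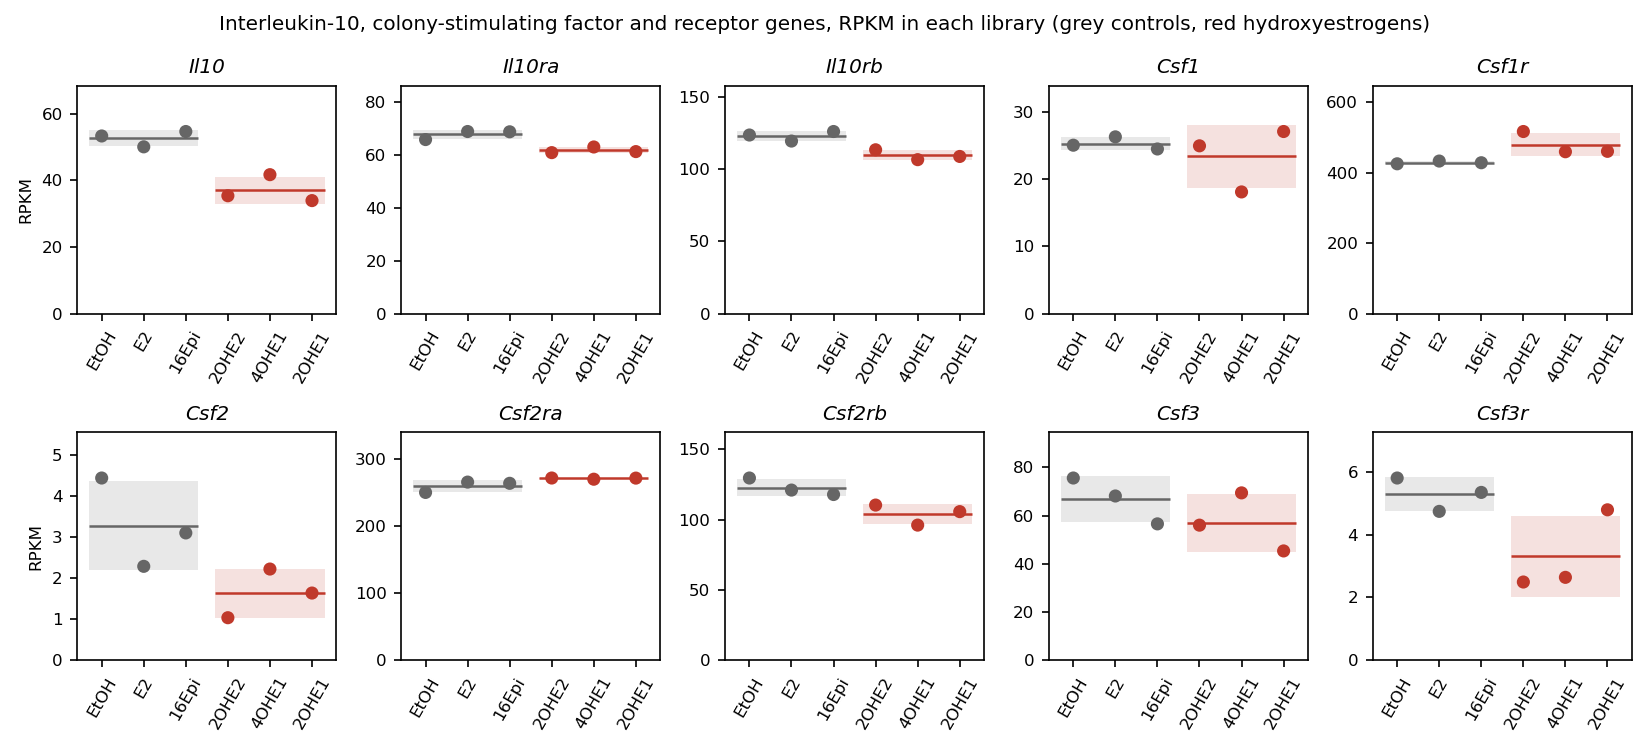
Level of each of the 10 genes in every library, in RPKM on a linear axis from 0; points are libraries, the line is the group mean and the shaded band is ± 1 SD (n = 3, grey controls, red hydroxyestrogens). Il10 lies at 50.1 to 54.7 RPKM in controls and 33.9 to 41.7 RPKM with hydroxyestrogens, in Csf1 the 4OHE1 library sits at 18.1 RPKM below the others, and in Csf3r the 2OHE1 library sits at 4.80 RPKM among the controls.

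The first comparison asked how these genes differed between macrophages given a catechol estrogen and those given vehicle or another estrogen before LPS. Il10 was the only gene of the 10 to pass limma's test over all genes, and it fell. Of 11991 genes tested, 1.88% passed an adjusted p of 0.05, 1.28% as higher and 0.6% as lower. The hydroxyestrogen and control libraries did not overlap for 7 genes, 5 lower (Il10, Il10ra, Il10rb, Csf2 and Csf2rb) and 2 higher (Csf1r and Csf2ra), against 20% of all tested genes in either direction, 10.8% lower and 9.15% higher. The median log2 difference of the 10 was -0.20, beside -0.02 over all tested genes, and 6 had an unadjusted p under 0.05, against 13.5% of all tested genes. In these bulk samples fewer cells making a transcript and less of it per cell cannot be told apart.

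**Figure D2:**
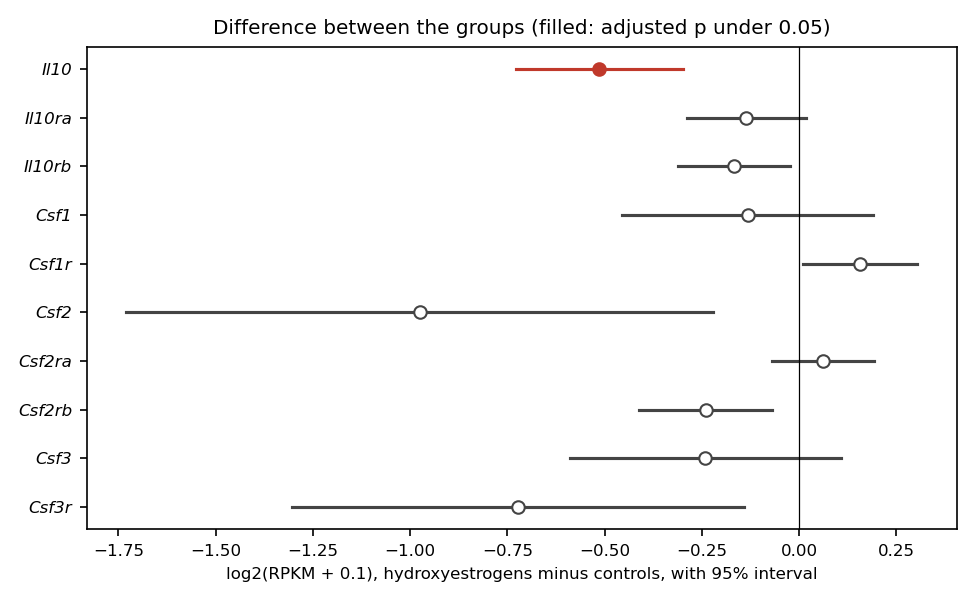
Difference of each gene between the groups, hydroxyestrogens minus controls on the log2(RPKM + 0.1) scale, with limma's 95% interval (3 libraries per group; filled: adjusted p under 0.05). The filled point is Il10 at -0.51; the widest interval is that of Csf2, from -1.73 to -0.22.

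Il10, on chromosome 1 (132916422 to 132921547, plus strand, mm9), stood at 53.4 RPKM with EtOH, 50.1 with E2 and 54.7 with 16Epi. It stood at 35.4 RPKM with 2OHE2, 41.7 with 4OHE1 and 33.9 with 2OHE1. Each hydroxyestrogen library was below each control, and 4OHE1 was the nearest to them. The mean fell by 29.8%, from 52.7 ± 2.37 to 37.0 ± 4.14 RPKM (SD, n = 3 per group), a log2 difference of -0.51 ± 0.10 (SE; 95% interval -0.73 to -0.30; limma adjusted p = 0.0296). The authors' deposited table also calls Il10 lower (log2 fold change -0.49, adjusted p = 0.00463). It calls 594 of all its 24505 genes (2.42%), those without reads included. The limma test here called 225 of 11991 tested genes, so these shares are not directly comparable. Without 4OHE1 the difference was -0.60 (limma adjusted p = 0.0127), but the call was lost without any 1 of the other 5 libraries (adjusted p = 0.0767 to 0.155, the difference from -0.55 to -0.45). It was also lost with median-ratio scaling of the libraries (0.0609), with no filter on reads (0.0738) and with no variance trend (0.202). Over all genes, limma's calls fell from 225 to 127, 86 and 76 without EtOH, E2 and 16Epi. They fell to 198, 182 and 174 without 2OHE2, 4OHE1 and 2OHE1. With median-ratio scaling 200 genes were called, with no filter on reads 94 and with no variance trend 12.

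**Figure D3:**
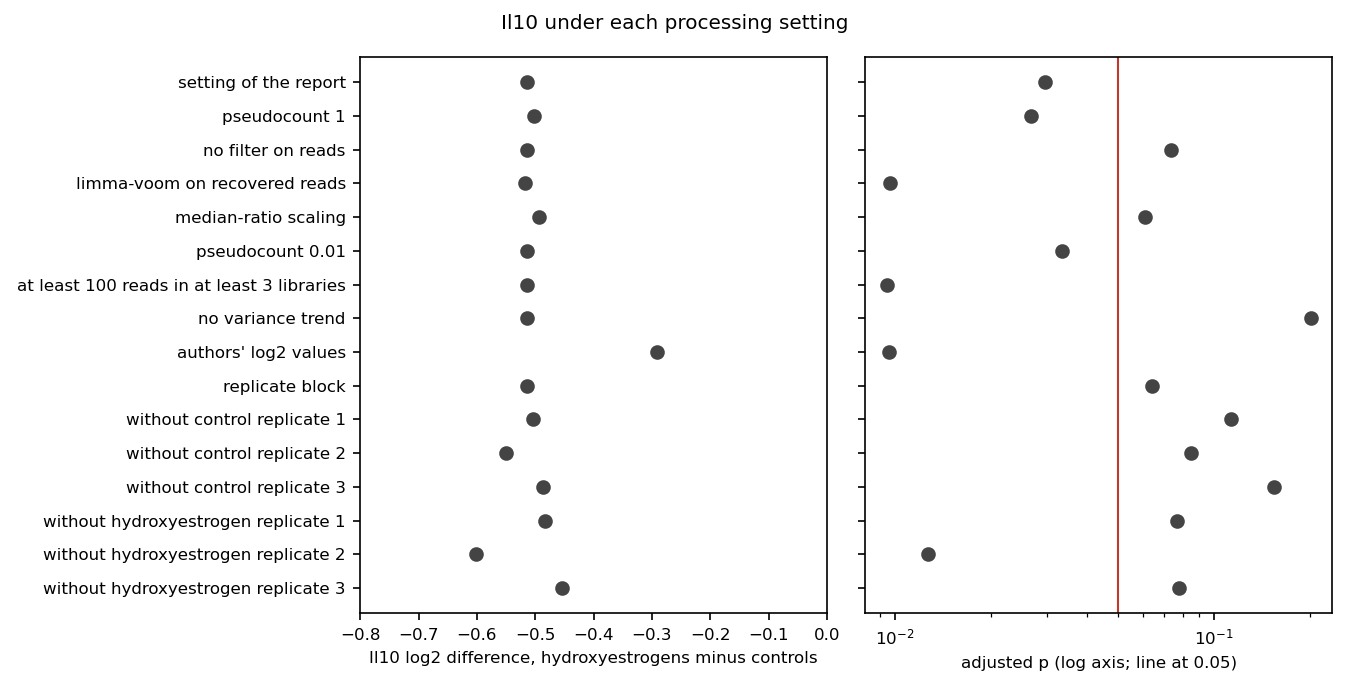
Il10 under each processing setting, with the log2 difference on the left and the adjusted p on a log axis on the right (line at 0.05; control replicates 1 to 3 are EtOH, E2 and 16Epi, hydroxyestrogen replicates 1 to 3 are 2OHE2, 4OHE1 and 2OHE1). The difference is below 0 in all settings, from -0.60 to -0.29 (the latter on the authors' transformed log2 values), and the adjusted p runs from 0.00943 to 0.202.

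The IL-10 receptor chains were a little lower and did not pass. Il10ra (chromosome 9, 45061922 to 45077229, minus strand), the chain that binds IL-10, stood at 65.9, 69.0 and 68.9 RPKM with EtOH, E2 and 16Epi and at 61.0, 63.1 and 61.4 RPKM with 2OHE2, 4OHE1 and 2OHE1. Il10rb (chromosome 16, 91406480 to 91426079, plus strand), which IL-10 shares with other cytokines of its family, stood at 123.6, 119.4 and 126.0 RPKM and at 113.4, 106.5 and 108.7 RPKM in the same order. For both genes the hydroxyestrogen libraries lay just below the control range. The log2 differences were -0.14 (95% interval -0.29 to 0.02, limma adjusted p = 0.432) for Il10ra and -0.17 (-0.31 to -0.02, adjusted p = 0.289) for Il10rb.

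Among the other ligands, Csf2 had the largest difference and the fewest reads. Csf2 (chromosome 11, 54060772 to 54063401, minus strand), which encodes GM-CSF, stood at 4.44 RPKM (83 reads) with EtOH, 2.28 (40 reads) with E2 and 3.10 (53 reads) with 16Epi. With hydroxyestrogens it stood at 1.03 RPKM (20 reads) for 2OHE2, 2.22 (45 reads) for 4OHE1 and 1.63 (31 reads) for 2OHE1. E2 and 4OHE1 were nearly level, and both groups were widely spread (coefficients of variation 33.2% and 36.4%). The log2 difference was -0.98 ± 0.34 (SE; interval -1.73 to -0.22), which did not pass (limma adjusted p = 0.241).

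Csf1 and Csf3, the genes of M-CSF and G-CSF, overlapped between the groups. Csf1 (chromosome 3, 107543966 to 107563387, minus strand) stood at 25.0, 26.2 and 24.4 RPKM in the controls and at 24.9, 18.1 and 27.0 RPKM with 2OHE2, 4OHE1 and 2OHE1. Only 4OHE1 lay outside the range of 24.4 to 27.0 RPKM of the other 5 libraries. The group difference was -0.13 (limma adjusted p = 0.749) and turned to 0.04 without 4OHE1. Csf3 (chromosome 11, 98562627 to 98564943, plus strand) stood at 75.6, 68.1 and 56.6 RPKM in the controls and at 56.0, 69.4 and 45.3 RPKM with 2OHE2, 4OHE1 and 2OHE1. It varied as much within the groups as between them (log2 difference -0.24, interval -0.59 to 0.11, adjusted p = 0.552). The difference was -0.09 without 2OHE1, -0.15 without EtOH and -0.40 without 4OHE1.

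The receptors of the colony-stimulating factors differed from controls in both directions, none past limma's test. Csf1r (chromosome 18, 61265226 to 61290793, plus strand) stood at 425, 433 and 428 RPKM in the controls, with a coefficient of variation of 0.913%. It stood at 517 RPKM with 2OHE2, 459.7 with 4OHE1 and 461 with 2OHE1, all above the controls, with 2OHE2 the farthest. The difference was 0.16 (interval 0.01 to 0.30, limma adjusted p = 0.337) and 0.10 without 2OHE2; the authors' deposited table calls it higher (log2 fold change 0.18, adjusted p = 0.0354). Csf2ra (chromosome 19, 61300305 to 61304321, minus strand), the GM-CSF-binding chain, stood at 250.3, 266 and 264 RPKM in controls and at 272, 270.0 and 272 RPKM with hydroxyestrogens (log2 difference 0.06, interval -0.07 to 0.19, adjusted p = 0.704).

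Csf2rb (chromosome 15, 78156420 to 78181431, plus strand), the β chain common to the GM-CSF, IL-3 and IL-5 receptors, stood at 129.7, 121 and 118 RPKM in the controls. It stood at 110.4, 96.1 and 105.7 RPKM with 2OHE2, 4OHE1 and 2OHE1, all below the controls. The log2 difference was -0.24 (interval -0.41 to -0.07, limma adjusted p = 0.194), and -0.18 without 4OHE1, the lowest library (adjusted p = 0.320). Limma-voom on recovered reads gave an adjusted p of 0.04996, and the authors' deposited table calls the gene lower (log2 fold change -0.22, adjusted p = 0.0259). Mice carry a second β chain gene, Csf2rb2, whose product serves IL-3 alone and which lies beside Csf2rb. It stood at 64.9, 63.5 and 62.9 RPKM in controls and at 60.7, 53.6 and 57.3 RPKM with hydroxyestrogens (log2 difference -0.16, adjusted p = 0.402).

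Reads of these copies may have been split between them. The longest coding frames of Csf2rb and Csf2rb2 were identical at 95.2% of 2631 aligned positions, the longest identical run was 242 bases, and 26.0% of the 50-base windows of Csf2rb also occur in Csf2rb2. The pair of 60-base windows with the most differences (13) is printed from the mouse transcripts of the reference, with differing letters in capitals, because only reads over such letters separate the genes. The window starts at coding base 304 of Csf2rb and 307 of Csf2rb2, both on chromosome 15.
Csf2rb: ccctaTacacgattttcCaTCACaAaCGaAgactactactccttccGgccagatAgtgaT
Csf2rb2: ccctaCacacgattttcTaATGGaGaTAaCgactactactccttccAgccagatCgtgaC
The values of Csf2rb and Csf2rb2 are uncertain to that extent.

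Csf3r (chromosome 4, 125701903 to 125722219, plus strand), the G-CSF receptor, was low in these macrophages, at 5.82, 4.75 and 5.36 RPKM in the controls. It stood at 2.49 RPKM with 2OHE2, 2.64 with 4OHE1 and 4.80 with 2OHE1. The first pair lay below every control and 2OHE1 lay within the control range. The log2 difference was -0.72 ± 0.26 (SE; interval -1.30 to -0.14, limma adjusted p = 0.257), and -1.01 without 2OHE1 (adjusted p = 0.0532). Neutrophil markers, at 37 reads or fewer per gene, summed to 2.53, 3.52 and 0.697 RPKM with 2OHE2, 4OHE1 and 2OHE1; their part in the Csf3r values was not tested.

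Next, each hydroxyestrogen was set against the 3 controls. The spread came from the controls and from limma's trend of spread over all tested genes. The controls gave 2 residual degrees of freedom, and with the trend the median total was 6.64. Intervals are thus not the control scatter of each gene alone. None of the 30 differences of the 10 genes passed limma's test, 12 had an unadjusted p under 0.05, and the smallest adjusted p was 0.0624. Of all genes, 0.609% passed for 2OHE2, 3.69% for 4OHE1 and 0.542% for 2OHE1, and 13.8%, 23.9% and 14.2% had an unadjusted p under 0.05. Il10 differed from controls by -0.57 (interval -0.80 to -0.34, adjusted p = 0.0700) with 2OHE2, by -0.34 (-0.56 to -0.11, adjusted p = 0.104) with 4OHE1 and by -0.63 (-0.86 to -0.40, adjusted p = 0.0624) with 2OHE1. Without the EtOH library, Il10 passed with 2OHE1 (adjusted p = 0.0379). The comparisons share their controls, so a high or low control moves all 3 values together.

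Other genes stood farthest out under different compounds. Csf2 and Csf1r differed most with 2OHE2, by -1.53 (interval -2.47 to -0.58, adjusted p = 0.164) and 0.27 (0.12 to 0.42, adjusted p = 0.127). Csf3r differed by -1.06 with 2OHE2 (adjusted p = 0.106) and by -0.97 with 4OHE1 (adjusted p = 0.0711), but by -0.14 with 2OHE1 (interval -0.68 to 0.40). Csf1 and Csf2rb differed most with 4OHE1, by -0.48 (interval -0.74 to -0.22, adjusted p = 0.0667) and -0.35 (-0.55 to -0.15, adjusted p = 0.0744). Csf3 differed most with 2OHE1, by -0.55 (interval -0.92 to -0.17, adjusted p = 0.202). With limma-voom 8 of these 30 passed: Il10, Csf1r and Csf3r with 2OHE2, Csf1, Csf2rb and Csf3r with 4OHE1, and Il10 and Csf3 with 2OHE1. That fit called 4.13%, 14% and 3.34% of all genes for 2OHE2, 4OHE1 and 2OHE1. In that fit a lone library is likewise assumed to vary like the controls.

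**Figure D4:**
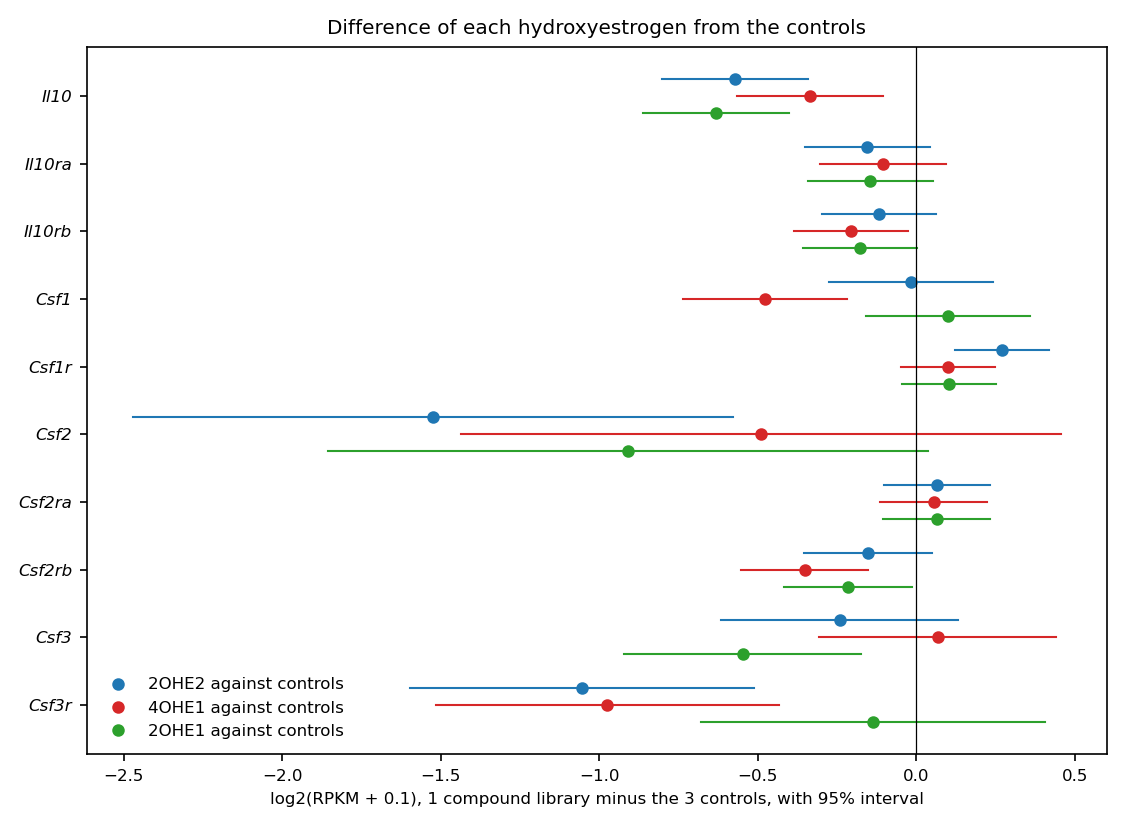
Difference of each hydroxyestrogen library from the 3 controls for the 10 genes, on the log2(RPKM + 0.1) scale with limma's 95% interval. There is 1 library per compound, and the spread is from the controls and from limma's trend over all tested genes. Il10 is below 0 for all 3 compounds, while Csf1 is lowest with 4OHE1 (-0.48) and Csf3r is near the controls with 2OHE1 (-0.14).

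Compounds were then compared with one another at the same dose and time, in 7 pairs over the 10 genes. Hydroxyestrogen pairs took their spread from the controls (median SE over all genes 0.24). Control pairs took it from the hydroxyestrogens (0.346), and 2OHE2 against E2 from the other 4 libraries (0.305). Shares of genes that pass are therefore not directly comparable between these kinds of pair. None of the 70 differences passed limma's test, 7 had an unadjusted p under 0.05, and the smallest adjusted p was 0.197. Of all genes, 0.0417% passed for 2OHE2 against 2OHE1, 0.0417% for 4OHE1 against 2OHE1, 0.0751% for 4OHE1 against 2OHE2 and 0.0667% for 2OHE2 against E2. Among the controls 0.00834% passed for E2 against EtOH, 0.0167% for 16Epi against EtOH and 0.0167% for 16Epi against E2. An unadjusted p under 0.05 was met by 10.6%, 15% and 15.8% of all genes in the 3 hydroxyestrogen pairs in the same order, by 5.9% for 2OHE2 against E2, and by 1.35%, 1.51% and 1.37% in the control pairs. Of the 7 member differences, 4 were between 4OHE1 and 2OHE1, and the total is near these shares. 4OHE1 and 2OHE1 differ in the position of the added hydroxyl on the same estrone backbone. Csf1 was lower with 4OHE1 by a log2 difference of -0.58 (interval -0.90 to -0.26, adjusted p = 0.197), Csf3r by -0.84 (-1.50 to -0.17, adjusted p = 0.265), and Csf3 higher by 0.61 (0.16 to 1.07, adjusted p = 0.2499). Il10 differed by 0.30 (0.02 to 0.58, adjusted p = 0.314). With limma-voom Csf1 and Csf3 passed in this pair (adjusted p = 0.0320 and 0.0493), where that fit called 2.29% of all genes.

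2OHE2 and 2OHE1 carry the same catechol on an estradiol and an estrone backbone. Csf3r was lower with 2OHE2 by -0.92 (interval -1.58 to -0.25, limma adjusted p = 0.381). Il10 differed by 0.06, with an interval of -0.22 to 0.34, and Csf1 by -0.12 (-0.43 to 0.20), so differences within those intervals are not resolved. 2OHE2 and E2 differ by the catechol hydroxyl alone. Il10 was lower with 2OHE2 by -0.50 (interval -0.93 to -0.07, adjusted p = 0.740) and Csf2 by -1.07 (-2.19 to 0.04, adjusted p = 0.852). Among the controls, EtOH, E2 and 16Epi differed from each other by at most 0.13 in Il10 (E2 to 16Epi, interval -0.34 to 0.60), and no gene of the 10 had an unadjusted p under 0.05 in those 3 pairs. 4OHE1 and 2OHE2 differ in both position and backbone, and their widest difference was that of Csf2, at 1.03 (interval -0.12 to 2.19, adjusted p = 0.356).

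Promoters are printed for Csf1, Csf2 and Csf3r, the genes that differed most between compounds among the 4 of the 10 with a RefSeq promoter here (GRCm38.p6). Each is the 250 bases before the start, in the direction of transcription, and capitals mark a match to a searched motif. Csf1 lies at chr3:107760470-107760719 (minus strand), Csf2 at chr11:54249900-54250149 (minus strand) and Csf3r at chr4:126024409-126024658 (plus strand).
Csf1: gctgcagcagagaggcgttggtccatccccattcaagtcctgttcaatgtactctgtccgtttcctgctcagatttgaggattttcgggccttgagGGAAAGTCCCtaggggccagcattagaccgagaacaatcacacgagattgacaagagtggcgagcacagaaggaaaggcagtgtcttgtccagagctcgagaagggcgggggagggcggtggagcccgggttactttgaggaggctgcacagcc
Csf2: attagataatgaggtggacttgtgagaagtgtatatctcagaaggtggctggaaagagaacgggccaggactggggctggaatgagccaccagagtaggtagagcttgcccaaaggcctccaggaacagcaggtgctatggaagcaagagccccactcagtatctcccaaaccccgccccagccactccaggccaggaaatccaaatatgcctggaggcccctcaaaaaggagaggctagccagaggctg
Csf3r: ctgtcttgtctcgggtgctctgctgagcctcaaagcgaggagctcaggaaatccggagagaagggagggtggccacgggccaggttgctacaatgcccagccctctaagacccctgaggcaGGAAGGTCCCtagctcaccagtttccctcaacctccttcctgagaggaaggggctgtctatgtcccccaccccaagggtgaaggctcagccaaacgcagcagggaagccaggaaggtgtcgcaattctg
On both strands the search covered the NF-kB consensus, AP-1 (TGANTCA), CRE (TGACGTCA), STAT (TTCNNNGAA) and NRF2 (TGACNNNGC), where NRF2 matches can share letters with AP-1 or CRE matches. Csf1 held an NF-kB match 154 to 145 bases before its start and Csf3r held one 129 to 120 bases before its start. Csf2 held no match in this window. Csf2ra, the other gene with a promoter, held a CRE match. Of 32851 promoters, 7.25% held an NF-kB match, 6.75% AP-1, 1.55% CRE, 7.02% STAT and 10.2% NRF2.

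Genes that work around these ligands and receptors were counted next, in 6 lists with 105 distinct tested genes. Of these, 2 were higher and 10 lower (11.4%), against 1.88% of all genes. Several genes stand in more than 1 list, and the lists were not chosen blind to these data. Among the 12 that passed, the differences farthest from 0 were the rise of Hmox1 and the falls of Egr1 and Cish. With no variance trend Hmox1 alone of the 12 passed (adjusted p = 0.0493), and with no filter on reads Hmox1, Il1rn and Cebpa did. Median-ratio scaling ended the calls of Maf (0.0547), Egr1 (0.0523), Ccl22 (0.0574), Socs3 (0.0523) and Pilra (0.0644), and leaving out 4OHE1 ended those of Maf (0.0977), Egr1 (0.0982) and Ccl22 (0.107).

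Of 28 genes known to control Il10 in macrophages, 1 fell and 27 did not pass, with a median log2 difference of -0.04. The one that fell was Maf, a transcription factor known to drive Il10 in macrophages. It stood at 100.8, 90.2 and 106 RPKM with EtOH, E2 and 16Epi and at 55.5, 59.3 and 77.3 RPKM with 2OHE2, 4OHE1 and 2OHE1. The groups did not overlap, and 2OHE1 was the nearest to the controls. The log2 difference was -0.64 ± 0.12 (SE, limma adjusted p = 0.0331); the call held without 2OHE1 (-0.78, 0.00638) and was lost without any 1 of the other 5 libraries (adjusted p up to 0.157). Maf was lower with 2OHE2 (-0.83, adjusted p = 0.0377) and 4OHE1 (-0.73, 0.0248) against controls, and at -0.35 with 2OHE1 (0.224). Il10 was lowest with 2OHE1, at a log2 difference of 0.06 from 2OHE2 that was not resolved. Maf was not compared between compounds, and its part in the Il10 values was not tested.

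Other controllers of Il10 did not pass. Nfkb1, which encodes an NF-kB subunit and its precursor, stood at 168 ± 2.36 against 139.6 ± 11.2 RPKM (SD, n = 3; controls against hydroxyestrogens; log2 difference -0.27, adjusted p = 0.130). Nfil3, a transcription factor, was at -0.52 (adjusted p = 0.130), and Zfp36, whose product tristetraprolin destabilises cytokine mRNAs, at -0.35 (adjusted p = 0.180). With limma-voom, which called 3.95% of all genes, 5 genes of the list passed, Nfkb1 (adjusted p = 0.0206) and Zfp36 (0.0180) among them.

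Of 23 tested genes of IL-10 receptor signalling or known to respond to IL-10, 1 rose, 5 fell and 17 did not pass, with a median of -0.18. Hmox1, heme oxygenase 1, which IL-10 induces and which is also a target of the oxidant-responsive factor NRF2, rose from 906, 841 and 733 RPKM in the controls to 2024, 2462 and 2064 RPKM with 2OHE2, 4OHE1 and 2OHE1 (log2 difference 1.40, limma adjusted p = 0.000426). Il1rn, the IL-1 receptor antagonist, fell from 336, 322 and 335 RPKM to 149, 186 and 183 RPKM (-0.95, adjusted p = 0.00118). Both passed without each single library and for each compound against the controls. Of the 23 genes, 3 had a log2 difference above 0 and 20 had one below 0.

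Socs3, a STAT3-induced inhibitor that acts on the G-CSF receptor and gp130, fell from 403 ± 14.4 to 315 ± 6.62 RPKM (SD, n = 3; log2 difference -0.36, limma adjusted p = 0.0158). Hcar2, the niacin receptor, fell from 96.8 ± 8.71 to 65.5 ± 5.26 RPKM (-0.56, adjusted p = 0.0143). Pilra, an inhibitory receptor named after its values were seen, fell by 0.70 (adjusted p = 0.0309). The calls of Socs3 and Hcar2 were lost without E2 (adjusted p = 0.106 and 0.0765), that of Socs3 also without 16Epi (0.103), and that of Hcar2 also without EtOH (0.0628). That of Pilra held without 4OHE1 (0.0072) and was lost without any 1 of the other 5 libraries (0.0699 to 0.127). Stat3, the receptor's main transcription factor, was at -0.24 (adjusted p = 0.246).

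IL-10's relatives were barely present. Of 11 genes of IL-10 family cytokines and their receptors, 9 were not measured, with under 10 reads in every library, among them Il20, Il22 and Il24. Il19, which lies in the same cluster as Il10, stood at 3.13, 1.44 and 4.19 RPKM in controls and at 2.08, 2.99 and 1.06 RPKM with hydroxyestrogens. Il20rb, a receptor chain of IL-19, IL-20 and IL-24, stood at 2.53, 4.04 and 3.89 RPKM and at 3.03, 1.93 and 3.24 RPKM. Both overlapped between the groups and did not pass (log2 differences -0.48 and -0.35, limma adjusted p = 0.694 and 0.636).

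Of 31 genes of CSF1R ligands, expression and signalling, 1 rose and 1 fell, with a median of -0.11. Cebpa, a transcription factor of myeloid differentiation, rose from 23.6, 19.2 and 19.5 RPKM with EtOH, E2 and 16Epi to 40.1, 43.6 and 34.3 RPKM with 2OHE2, 4OHE1 and 2OHE1 (log2 difference 0.92, limma adjusted p = 0.00644), and passed without each single library (0.00638 to 0.0394). Egr1, an early response factor downstream of growth factor receptors, fell from 0.751, 1.24 and 1.51 RPKM to 0.121, 0.165 and 0.335 RPKM, on 7 to 77 reads (-2.06, adjusted p = 0.0457; 0.0627 with limma-voom). On leaving out 1 library in turn it passed only without 2OHE1 (0.0402) and reached an adjusted p of 0.2299 without 16Epi. Plau, urokinase, was at -0.58 (adjusted p = 0.0714). Spi1, which encodes PU.1, a factor that drives Csf1r, was named after its values were seen and stood at 671 against 648 RPKM (-0.05, adjusted p = 0.807).

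Of 20 tested genes of the GM-CSF, IL-3 and IL-5 system, 3 fell and 17 did not pass, with a median of -0.17; Il3, Il5 and Il5ra were not measured. Cish, a STAT5-induced inhibitor of cytokine signalling, stood at 11.6, 7.83 and 7.96 RPKM in controls and at 4.20, 4.06 and 4.27 RPKM with 2OHE2, 4OHE1 and 2OHE1 (log2 difference -1.09, limma adjusted p = 0.0190). The hydroxyestrogen libraries were nearly level and EtOH was the highest control. Socs1, an inhibitor of JAK kinases, stood at 141.6, 146 and 144 RPKM in controls and at 81.7, 90.7 and 110.4 RPKM with hydroxyestrogens (-0.62, adjusted p = 0.0156). Ccl22, a T cell-attracting chemokine of myeloid cells, stood at 61.2, 51.4 and 45.0 RPKM and at 24.1, 22.8 and 37.6 RPKM (-0.92, adjusted p = 0.0409). All 3 calls were lost without any 1 control (adjusted p = 0.0526 to 0.138), and that of Ccl22 also without 2OHE2 (0.106) or 4OHE1 (0.107). Irf4, a transcription factor of this list, had 0 to 44 reads and did not pass (adjusted p = 0.235).

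Of 14 tested genes of G-CSF receptor signalling, 1 fell, Socs3, which also stands in the IL-10 list, and 13 did not pass, with a median of -0.17. Lyn, a kinase of the Src family, stood at 147 ± 6.68 against 119.0 ± 5.71 RPKM (SD, n = 3; controls against hydroxyestrogens; log2 difference -0.31, limma adjusted p = 0.0630), and Jak2 at -0.29 (adjusted p = 0.286). Mpo and Elane, granule genes of neutrophil precursors, were not measured.

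**Figure D5:**
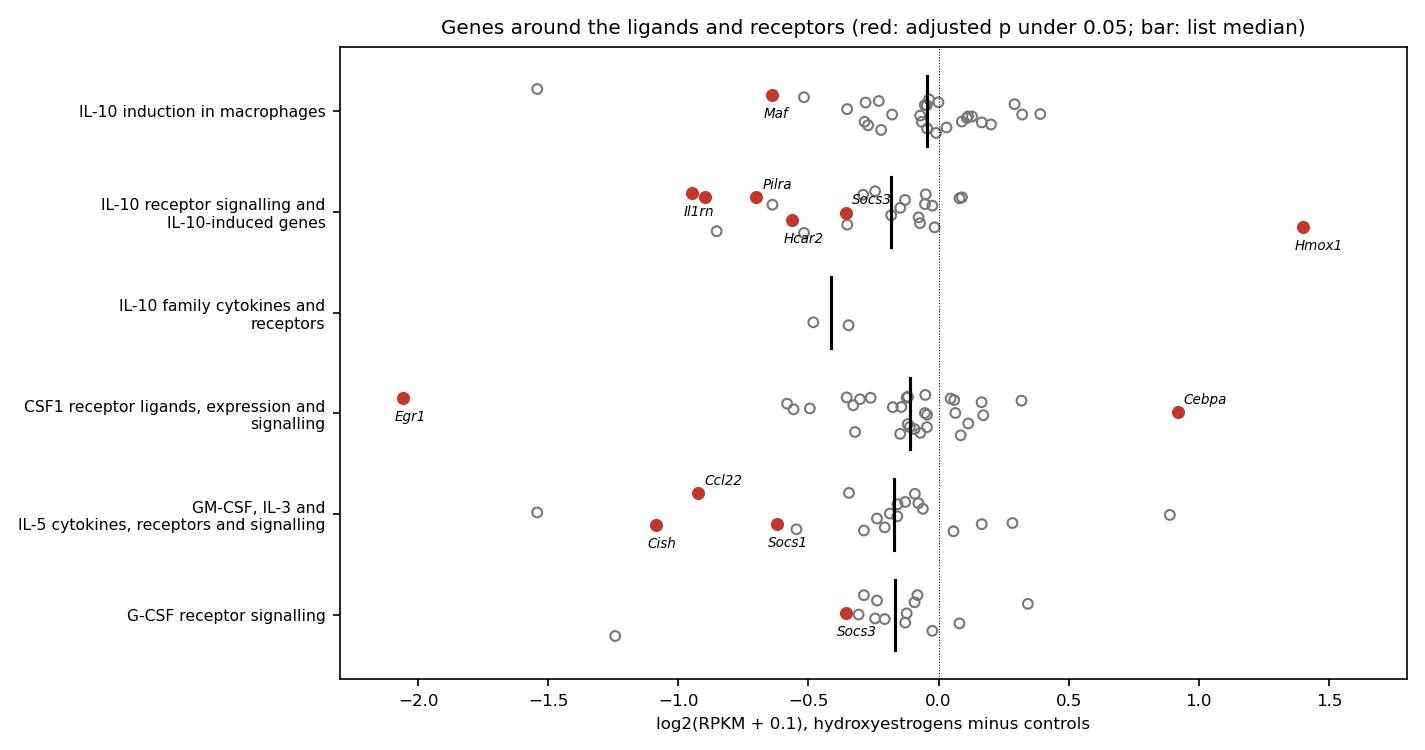
Group difference of each tested gene of the 6 lists, hydroxyestrogens minus controls on the log2(RPKM + 0.1) scale (points are genes with random vertical scatter, red: adjusted p under 0.05, bar: list median). Red points described in the text are named; Hmox1 (1.40) and Cebpa (0.92) are the ones above 0, and the medians lie between -0.41 and -0.04.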

How the data were processed

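The 6 mRNA libraries were grouped by their titles. The treatment characteristic in the labels reverses the groups; it was set aside, since the protocol names ethanol as the vehicle. RPKM values over exons were made by the authors with HOMER, 1 entry per gene, per the file headers. STAR, HOMER, DESeq2 and edgeR are named for mm9 in the submitters' processing notes, without versions; how strand was handled in counting is not given in these sources. The authors' deposited table also holds log2 expression values, a log2 fold change (sign turned here, since it was opposite to its own values for all 594 calls), p-values and adjusted p-values; its Csf3r and Csf2rb2 entries are other transcripts.

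RPKM gave back whole reads: in each library 100% of the values checked (under 20 reads, genes shorter than 6000 nt) lay no more than 0.1 from a whole number. Genes with 10 or more reads in 3 or more libraries (11991) were tested with limma 3.58.1 (R 4.3.3; trend on expression, two-sided, Benjamini-Hochberg over all genes, threshold 0.05) on log2(RPKM + 0.1), with 4 residual degrees of freedom. Folds on that scale understate changes of low genes. Lone compounds took their spread from the controls (2 residual degrees of freedom), and controls from the hydroxyestrogens. 2OHE2 against E2 took it from the other 4 libraries. In these fits limma also drew each gene's spread toward a trend over all tested genes. The steps were tested on simulated reads, with the same dispersion for every gene and planted changes larger than that of Il10. That run therefore does not show how well differences of the size described here are found. Named genes were the 10 genes, the smallest p of each list (up to 4), 3 genes most like each ligand (mean of at least 5 RPKM) and Csf2rb2; genes of the lists that are not reported here count in the totals only. These genes and lists were chosen with earlier results of these data known. Promoters and transcripts came from RefSeq and GENCODE (GRCm38), and motifs were searched in the 250 bases before the start only. Mir7086 and Mir6983 overlap Il10ra and Csf1r on the same strand and may share reads with them, which was not tested.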

Additional observations from a re-analysis of the deposited data

How the results depend on the processing

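The direction of Il10 was the same in every setting tried, and its side of the threshold was not. Of the 10 genes, the number past limma's test for the groups was 1, and it was 0 with no filter on reads, with median-ratio scaling and with no variance trend, 2 with limma-voom (Il10 and Csf2rb), and 0 to 1 without 1 library. Deviations from the group means correlated at -0.0356, 0.0661 and 0.0445 for same-numbered libraries and at -0.0788 to 0.0419 for the other pairs. Each library is a different compound or vehicle, so these values cannot decide whether the replicate numbers pair the samples. With the replicate block the number of the 10 genes past the test was 0 (Il10 limma adjusted p = 0.0641), and 165 of all genes passed in place of 225. With limma-voom it was 3 for 2OHE2, 3 for 4OHE1 and 2 for 2OHE1 against controls, and 2 for 4OHE1 against 2OHE1; without 1 control it was 0 to 1 for 2OHE1. Signs turned for small differences: without 1 library, Csf1 ran from -0.25 to 0.041 (above 0 without 4OHE1), Csf1 with 2OHE2 from -0.040 to 0.011 (above 0 without E2), and Csf3 with 4OHE1 from -0.048 (without 16Epi) to 0.16. In compound pairs with median-ratio scaling, Csf2ra turned to -0.054 (2OHE2 against 2OHE1), 0.037 (4OHE1 against 2OHE1) and 0.092 (4OHE1 against 2OHE2), Il10rb to 0.017 and 0.012 (4OHE1 against 2OHE1 and 2OHE2), and Csf1r to 0.043 (4OHE1 against 2OHE1) and -0.015 (16Epi against EtOH). With limma-voom Csf2ra turned to -0.00245, 0.00999 and 0.0124 in the same 3 pairs and Csf1r to 0.0152 (4OHE1 against 2OHE1). The cause was not tested.

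Counts of called list genes moved as follows, and the counts over all genes without 1 library are given with Il10. For Il10 control (1), 0 with no filter, median-ratio scaling or no variance trend, 5 with limma-voom, 2 with the authors' log2 values and 0 to 2 without 1 library. For IL-10 signalling (6), 2 with no filter, 1 with no variance trend, 4 with median-ratio scaling, 8 with limma-voom, at least 100 reads or the authors' log2 values, and 2 to 7 without 1 library. For CSF1R (2), 1 with no filter, median-ratio scaling, a pseudocount of 0.01 or the replicate block, 0 with no variance trend, 3 with limma-voom or at least 100 reads, 4 with the authors' log2 values and 1 to 2 without 1 library. For GM-CSF (3), 0 with no filter or no variance trend, 2 with median-ratio scaling or the replicate block and 0 to 3 without 1 library. For G-CSF (1), 0 with no filter, median-ratio scaling or no variance trend, 2 with limma-voom, at least 100 reads or the authors' log2 values, and 0 to 1 without 1 library. With 1 library per compound, compound and library cannot be told apart.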

Other observations

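Neighbouring genes gave no call. Within 100000 bases of the 10 genes (mm9), 26 distinct neighbours were tested by limma and 0 passed. Beside Il10 lie Mapkapk2, a kinase gene of the p38 pathway, at 939 ± 4.89 RPKM in controls and 829.6 ± 18.7 with hydroxyestrogens (SD, n = 3 per group; log2 difference -0.18, limma adjusted p = 0.188), and Il19.

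Over the 6 libraries, the genes whose log2 level followed that of Il10 most closely among 7223 with a mean of at least 5 RPKM were Stx12, a syntaxin of endosomes, Taf9, a subunit of TFIID, and Nfkbia, the NF-kB inhibitor (Pearson r = 0.992, 0.992 and 0.987). Nfkbia stood at 640 ± 5.79 RPKM in controls and 575 ± 19.6 with hydroxyestrogens (SD, n = 3 per group; limma adjusted p = 0.271). For Csf1 they were Mir8104, Bbc3 and Med12 (0.996, 0.992 and 0.989), all lowest with 4OHE1. For Csf2 they were Rheb, Kctd10 and Gnb4 (0.983, 0.983 and 0.979), and for Csf3 Atg5, Lyz2 and Tnfrsf13b (0.983, 0.982 and 0.979). The 6 points fall into the same 2 groups for every gene, and 13 to 52 genes reached r = 0.95 for each ligand.

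Ratios within a library, 5 chosen after the values were seen, were compared with an exact permutation test, two-sided. Its smallest p is 0.1 for 3 against 3, so no ratio could pass the threshold used for the genes. An exact p of 0.1 only restates that the groups did not overlap, which could be seen when the ratios were chosen. No conclusion is drawn from these p-values. The ratio of Csf2rb to Csf2ra RPKM was 0.473 ± 0.0389 in controls and 0.384 ± 0.0255 with hydroxyestrogens (SD, n = 3 per group; exact p = 0.1, adjusted over the 5 ratios 0.167), with no overlap. That of Il10ra to Il10 was 1.29 ± 0.0758 and 1.68 ± 0.152 (exact p = 0.1), and that of Csf2rb to Csf2rb2 1.93 ± 0.0638 and 1.82 ± 0.0264 (exact p = 0.1). Csf1r to Csf1 was 17.02 ± 0.510 and 21.1 ± 4.21 (exact p = 0.2), and Csf3 to Csf3r 12.6 ± 1.92 and 19.4 ± 8.83 (exact p = 0.4).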
